A study of Mus musculus with 6 samples.

Results

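Iron is stored in cells inside ferritin, a shell built from a heavy chain (FTH1) and a light chain (FTL), and enters most cells as transferrin-bound iron through the transferrin receptor (TFRC). The iron regulatory proteins bind stem-loops in the messenger RNAs of these genes, where they hold back the translation of ferritin and protect the receptor transcript from decay. Redox defence uses 2 linked thiol systems, glutathione, made from cystine that is brought in by SLC7A11, and thioredoxin, kept reduced by TXNRD1 and bound by the inhibitor TXNIP. Many genes of both systems, and the ferritin genes, are known targets of the transcription factor NRF2, and squamous carcinomas of the esophagus often carry changes that activate it.

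The genes described here are those of FTH1, FTL, TFRC, SLC7A11, GCLM, GCLC, TXNIP, TXNRD1, NQO1 and HMOX1 that had a row in the deposited table. Of these 10 genes 7 had a row, among 4195 rows in all, and GCLC, NQO1 and HMOX1 had none and have no value here. The table came from KYSE30, an established human cell line of esophageal squamous cell carcinoma (genotype WT), either as Control or stimulated with 100 uM acetylcholine (ACh), a neurotransmitter, each for 4 h. Each group had 3 libraries, made from total RNA with a SMARTer mRNA-seq kit. The labels name no vehicle for the Control cells, and nothing says that the replicates were separate cultures. Any p-value then measures the spread between these libraries, which may be technical.

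Every row of the table had a p-value under 0.05 in the authors' own test of ACh against Control. The 7 genes were thus selected on the same contrast that is described below, and were put together with earlier results of these data known. Their differences are given as a description and not as a test. In the authors' deposited table TXNRD1 was the member closest to that limit, with a p-value of 0.0248, and 0 of the 4195 rows lay outside the limit.

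Over the rows of the table the libraries totalled 10519515 to 11468978 normalised reads, which is not the sequencing depth. Each value was a whole multiple of 1 step per library, and that step was 0.7678 to 1.0147 in the Control and 1.0481 to 1.1314 in the ACh libraries, so the scaling moved with the group; its part in the results was not tested. A marker gene has a row only where its p-value for ACh against Control was under 0.05, so counts of such rows do not show which cells were present. Of 16 marker genes of squamous epithelium 7 had a row, with Control means from 1556 (DSC3) to 36058 (ITGB4). Of 18 markers of fibroblasts, endothelium, leukocytes and neurons 2 had a row, the fibroblast gene COL1A1 (177 in Control and 139 in ACh, with overlapping groups) and the leukocyte gene LAPTM5. LAPTM5 was low, at 19.6 ± 1.83 in Control and 39.6 ± 8.56 in ACh (SD, n = 3), 2.03-fold higher in ACh with no overlap between the groups. The adjusted p of LAPTM5 was exactly 1 in the authors' deposited table, so it could not be called under the rule used below, and its part in the results was not tested. In bulk RNA, fewer cells with a transcript and less of it per cell cannot be told apart. Base composition moved with direction in this table. Over 3681 rows with a value, Spearman's rho of the fold change (log2) with the share of G and C in the mouse transcript was -0.76, a description across genes measured in the same 6 libraries. For this reason the 7 genes, the counts of each list and several further genes are also given with that trend removed from each library, a step that shifted the median of these rows by 0.11 on the log2 scale.

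**Figure D1:**
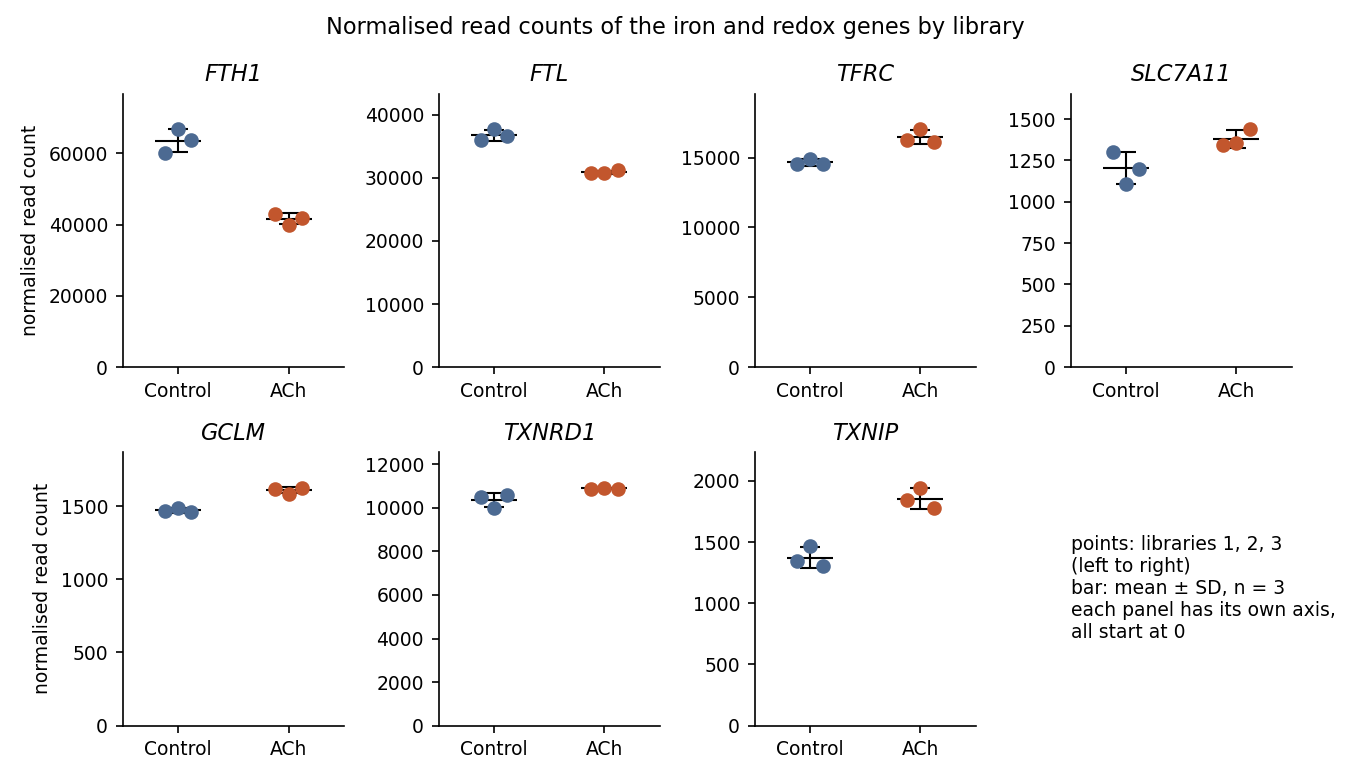
Normalised read counts (vertical axes, each from 0) of the 7 genes in the 3 Control and 3 ACh libraries, with the mean ± SD of each group. FTH1 and FTL are lower in every ACh library than in every Control library, and TFRC, SLC7A11, GCLM, TXNRD1 and TXNIP are higher.

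The iron storage transcripts FTH1 and FTL were lower in ACh-stimulated cells and the transcript of the uptake receptor TFRC was higher. With the trend of base composition removed, FTH1 was at -0.47 on the log2 scale, but FTL at -0.02 and TFRC at -0.06. FTH1, the chain that oxidises iron on its way into the shell, differed most of the 7 genes, and its mean fell by 34.4% with ACh. FTL, the chain that helps to form the mineral core, was 1.19-fold lower and TFRC 1.12-fold higher. A gene is said to be called where both the adjusted p of limma (fitted over all rows) and the adjusted p of the authors' deposited table were under 0.05. Of the 7 genes 2 were called lower, against 35.0% of all rows, and 3 were called higher, against 28.8% of all rows. In all, 5 of 7 were called, against 63.8% of rows, and the 3 ACh and 3 Control libraries did not overlap for 7 of 7 genes, against 93.0% of rows. Because the rows were selected on this contrast, nothing is read from these shares. The same holds for the lists of pathway genes below, whose counts are set beside the same shares of all rows.

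FTH1 (ENSG00000167996, chromosome 11, 61959718 to 61967660, minus strand) had normalised read counts of 60197, 66778 and 63725 in Control and of 43030, 40021 and 41997 in ACh. All 3 ACh libraries lay below all 3 Control libraries, with means of 63566 ± 3293 and 41683 ± 1529 (SD, n = 3). The log2 fold change, here and below the difference of group means of log2(value + 1), was -0.61 (standard error 0.05). By the p-value in the authors' deposited table FTH1 ranked 2 of the 4195 rows, and by the size of its fold change it ranked 30 among rows with a mean of at least 100. Mouse Fth1 is 53.6% G and C. After the base composition step FTH1 was at -0.47 and still called. Reads of FTH1 can match its processed pseudogenes, and how the authors assigned them is not given in the sources used here.

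FTL (ENSG00000087086, chromosome 19, 48965301 to 48966878, plus strand) stood at 35996, 37701 and 36603 in Control and at 30732, 30738 and 31194 in ACh. The groups did not overlap, and the ACh libraries lay closer together than the Control libraries. The means were 36766 ± 864 and 30888 ± 265 (SD, n = 3), which is -0.25 on the log2 scale (standard error 0.04). Mouse Ftl1 is richer in G and C, at 58.1%, and after the same step FTL was at -0.02 and was no longer called.

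Together the 2 ferritin chains held 0.894% ± 0.024 of the normalised reads of the listed genes in Control and 0.684% ± 0.017 in ACh (SD, n = 3). By normalised reads FTH1 stood above FTL in both groups, but per kilobase of the deposited gene length FTL stood above FTH1. Those lengths were 2030 bases for FTH1 and 878 for FTL. Whether they match the expressed transcripts was not tested, so which chain was more abundant is not settled. FTL had a level of 41875 ± 984 in Control and 35180 ± 302 in ACh per kilobase, and FTH1 of 31314 ± 1622 and 20533 ± 753 (SD, n = 3).

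TFRC (ENSG00000072274, chromosome 3, 196027183 to 196082189, minus strand) gave 14533, 14927 and 14511 normalised reads in Control and 16250, 17029 and 16143 in ACh. Every ACh library was above every Control library. The means were 14657 ± 234 and 16474 ± 484 (SD, n = 3), which is 0.17 on the log2 scale (standard error 0.03). Mouse Tfrc is AT-rich, with 39.8% G and C, and after that step the sign turned to -0.06 and the call was lost.

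Ratios of a pair of genes within a library do not depend on how that library was scaled. The ratio of FTH1 to TFRC was 4.14, 4.47 and 4.39 in Control and 2.65, 2.35 and 2.60 in ACh. The groups did not overlap, and the log2 ratio was lower in ACh by 0.78, or by 0.41 with the GC trend removed. Both genes of each pair were selected on this contrast, so nothing is read from a lack of overlap, here or for the ratios below. The ratio of heavy to light ferritin chain went from 1.73 ± 0.05 to 1.35 ± 0.05 (SD, n = 3). On the log2 scale that is a difference of -0.36, and of -0.45 with the GC trend removed. The ratio of FTL to TFRC went from 2.51 ± 0.03 to 1.88 ± 0.06 (SD, n = 3), a log2 difference of -0.42 that turned to 0.03 without the GC trend.

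**Figure D2:**
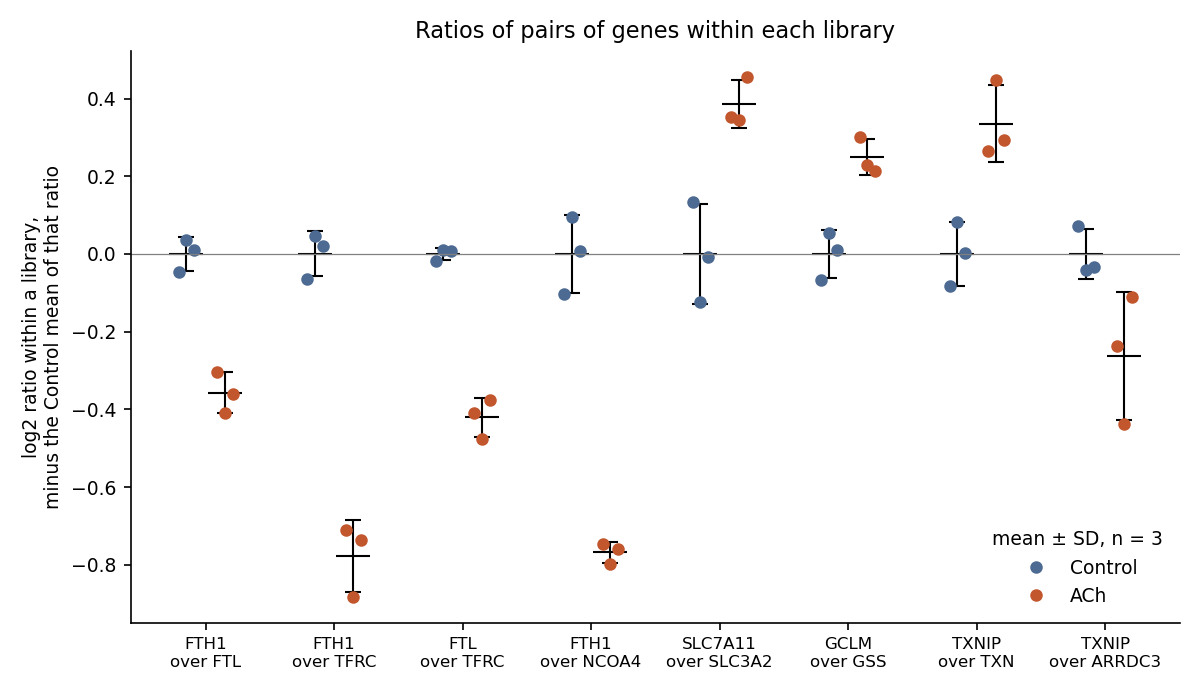
Log2 ratio of 8 pairs of genes within each library, minus the Control mean of that ratio (vertical axis, log2 units), for 3 Control and 3 ACh libraries with mean ± SD. FTH1 over TFRC is 0.78 lower in ACh and SLC7A11 over SLC3A2 is 0.39 higher, differences that are 0.41 and 0.03 in size after the GC step, which is not drawn.

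Processed pseudogenes of the heavy chain had higher values in ACh, where FTH1 itself was lower. FTH1P7, FTH1P8 and FTH1P11 were the rows with such a symbol, all with low values. FTH1P7 had normalised reads of 172, 162 and 139 in Control and 255, 181 and 313 in ACh, which is 0.63 on the log2 scale (standard error 0.15). FTH1P8 went from 53.7 ± 10.7 to 77.1 ± 10.5 and FTH1P11 from 6.81 ± 1.69 to 18.1 ± 1.97 (SD, n = 3). FTH1P7 was called higher. FTH1P8 and FTH1P11 had no overlap between the groups either, but their adjusted p was exactly 1 in the authors' deposited table, so they could not be called whatever their values. Their values are uncertain because reads can be split between near-identical copies, and their levels were small beside that of FTH1.

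Of 30 genes of iron uptake, export and storage 9 had a row, of which 2 were called higher (against 28.8% of all rows), 4 lower (against 35.0%) and 3 not. Beside TFRC the gene called higher was NCOA4, the receptor that carries ferritin to lysosomes, with normalised reads of 3535, 3417 and 3465 in Control and 3947, 3803 and 3885 in ACh. Its log2 fold change was 0.16, and -0.03 with the GC trend removed. The ratio of FTH1 to NCOA4 was 18.3 ± 1.26 in Control and 10.8 ± 0.20 in ACh (SD, n = 3), a log2 difference of -0.77 that was -0.43 after the GC step. PCBP1, a chaperone that delivers iron to ferritin, was called lower, from 4021 ± 175 to 3351 ± 97.5 (SD, n = 3). STEAP3, the endosomal reductase that acts on iron released from transferrin, was called lower by a log2 fold change of -0.18. CYBRD1, a ferric reductase of the plasma membrane, was not called, at 89.1 ± 8.95 and 122 ± 11.4 (SD, n = 3). After the GC step 1 of the 6 called genes kept its call and sign, FTH1.

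IREB2, which encodes iron regulatory protein 2, had normalised reads of 1591, 1567 and 1659 in Control and 2027, 1912 and 1863 in ACh. It was called higher with a log2 fold change of 0.27 and stood at 0.04 with the GC trend removed, the GC content of the mouse gene being 39.0%. CIAO3, of the cytosolic machinery that assembles iron-sulfur clusters, was called lower at -0.27. Of 32 genes of iron-sulfur cluster and haem synthesis 5 had a row, and of these 0 were called higher, 2 were called lower (CISD3 at -0.27 and NUBP2 at -0.25, against 35.0% of all rows) and 3 were not called. Haem breakdown had rows for POR, which passes electrons to haem oxygenase, and for BLVRB, a biliverdin reductase. Both were called lower, at -0.24 and -0.21, again against 35.0% of all rows. With the GC trend removed CISD3 was at -0.18 and kept its call. IREB2, CIAO3 (-0.08), NUBP2 (-0.08), POR (-0.01) and BLVRB (0.00) lost theirs.

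Glutathione precursor genes went both ways. SLC7A11, the cystine-carrying subunit of the cystine-glutamate exchanger (ENSG00000151012, chromosome 4, 138164097 to 138242349, minus strand), had normalised reads of 1301, 1108 and 1196 in Control and of 1341, 1353 and 1439 in ACh. The highest Control library, replicate 1, lay just under the lowest ACh library. The means were 1202 ± 96.6 and 1378 ± 53.3 (SD, n = 3), which is 0.20 on the log2 scale (standard error 0.05). Without Control replicate 2 it was 0.14 and without Control replicate 1 it was 0.26. The call held in both cases, but the authors' adjusted p was held as deposited, so nothing is read from that. After the GC step SLC7A11 was at -0.02 and not called, its mouse transcript being 40.7% G and C.

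SLC3A2, the chain that anchors SLC7A11 in the membrane, was called lower, from 12278 ± 114 to 10798 ± 85.4 (SD, n = 3). The ratio of SLC7A11 to SLC3A2 was 0.107, 0.0896 and 0.0971 in Control and 0.125, 0.124 and 0.134 in ACh. The groups did not overlap, and the log2 ratio was higher in ACh by 0.39, but by 0.03 after the GC step. SLC1A5, a glutamine carrier, was called lower at -0.23. After the GC step SLC3A2 was at -0.05 and SLC1A5 at -0.03, and both lost their calls.

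GCLM, the modifier subunit of the enzyme that catalyses the rate-limiting step of glutathione synthesis (ENSG00000023909, chromosome 1, 93885205 to 93909456, minus strand), had normalised reads of 1464, 1489 and 1459 in Control and of 1616, 1583 and 1625 in ACh. The libraries of a group lay close together and the groups did not overlap. The means were 1470 ± 15.9 and 1608 ± 22.02 (SD, n = 3), which is 0.13 on the log2 scale (standard error 0.04). In the authors' deposited table its adjusted p was 0.0647, so GCLM was not called. After the GC step it was at -0.08, again not called. GSS, the enzyme of the next step, was called lower at -0.12, a call that was lost with equal totals over the listed genes, and stood at 0.06 with the GC trend removed. Of 16 genes of cystine uptake and glutathione synthesis 6 had a row, and 1 was called higher (against 28.8% of all rows), 3 lower (against 35.0%) and 2 not. Of these 4 calls 0 were kept after the GC step.

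Of 34 enzymes that use glutathione 7 had a row, of which 1 was called higher (against 28.8% of all rows) and 4 lower (against 35.0%). GPX4, the peroxidase that reduces lipid hydroperoxides in membranes, went from 5544 ± 204 to 4595 ± 112, and GSTP1, the main glutathione transferase of many epithelia, from 19253 ± 444 to 16565 ± 405 (SD, n = 3). HAGH and GLO1, the enzymes that clear methylglyoxal, were called in opposite directions, HAGH at -0.32 and GLO1 at 0.19. GSR, which recycles oxidised glutathione, was not called, at 4229 ± 79.9 and 4465 ± 60.3 (SD, n = 3). Of these 5 calls 0 were kept after the GC step, and GPX4 and GSTP1 stood at -0.02 and -0.03.

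In the thioredoxin system the inhibitor TXNIP was higher by 35.1%. The reductase TXNRD1 and thioredoxin itself (TXN) were higher by 5.1% and 7.1%. Both passed limma's threshold but not that of the authors' adjusted p, and so were not called. TXNIP (ENSG00000265972, chromosome 1, 145992435 to 145996600, minus strand), an alpha-arrestin that binds reduced thioredoxin and also takes glucose transporters off the cell surface, had normalised reads of 1345, 1467 and 1304 in Control. In ACh it had 1841, 1944 and 1777. All ACh libraries were above all Control libraries. The means were 1372 ± 84.6 and 1854 ± 84.3 (SD, n = 3), which is 0.43 on the log2 scale (standard error 0.05). Mouse Txnip is 48.3% G and C, and after the GC step TXNIP was at 0.34 and still called.

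TXNRD1, the cytosolic thioredoxin reductase (ENSG00000198431, chromosome 12, 104215779 to 104350305, plus strand), had normalised reads of 10508, 9985 and 10596 in Control and of 10878, 10925 and 10870 in ACh. The groups did not overlap and the Control libraries spread more than the ACh libraries, with means of 10363 ± 330 and 10891 ± 29.8 (SD, n = 3). The log2 fold change was 0.07 (standard error 0.03), 0.05 without Control replicate 2 and 0.04 after the GC step. In the authors' deposited table the adjusted p was 0.0849, so TXNRD1 was not called. The interval of TXNRD1 also holds the row of a processed pseudogene, RPL18AP3, and how reads of the overlap were assigned is not given in the sources used here. TXN, thioredoxin itself, had overlapping groups at 5568 ± 256 and 5966 ± 227 (SD, n = 3) and was not called.

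The ratio of TXNIP to TXN was 0.233, 0.261 and 0.247 in Control and 0.296, 0.336 and 0.301 in ACh. The groups did not overlap, and the log2 ratio was higher by 0.34 in ACh. The ratio of TXNIP to TXNRD1 went from 0.133 ± 0.013 to 0.170 ± 0.007 (SD, n = 3). Of 30 genes of the thioredoxin system 13 had a row, of which 4 were called higher (against 28.8% of all rows), 4 lower (against 35.0%) and 5 not.

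SRXN1, the sulfiredoxin that repairs over-oxidised peroxiredoxins, had normalised reads of 415, 397 and 493 in Control and 273, 318 and 343 in ACh, a log2 fold change of -0.48. PRDX5 and PRDX2, peroxiredoxins that reduce peroxides, were called lower at -0.33 and -0.21. TXNDC9 and SELENOT, of the thioredoxin fold family, were called higher at 0.27 and 0.25. With the GC trend removed 5 of the 8 calls were kept, TXNIP and SECISBP2 higher and SRXN1 (-0.35), PRDX5 (-0.10) and PRDX2 (-0.21) lower. SECISBP2, which is needed to insert selenocysteine into enzymes such as TXNRD1 and GPX4, was at 0.17 before the removal and at 0.27 after it.

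TXNIP has a relative among the alpha-arrestins that differed more. ARRDC3 had normalised reads of 312, 368 and 325 in Control and 530, 643 and 468 in ACh, and was called higher with a log2 fold change of 0.70, or 0.48 with the GC trend removed. ARRDC1 was called lower at -0.20, which turned to 0.03 without the GC trend. MLXIP (MondoA), a glucose-sensing factor known to switch on TXNIP, was not called, at 2831 ± 92.9 and 2638 ± 102 (SD, n = 3) with overlapping groups.

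Per kilobase of gene length, the order of levels in Control was FTL, FTH1, TFRC, TXNRD1, TXNIP, GCLM and SLC7A11. TFRC and TXNRD1 were the closest neighbours by ratio, at 1858 ± 29.6 and 1545 ± 49.2 per kilobase (SD, n = 3). TXNIP was at 379 ± 23.4, GCLM at 271 ± 2.93 and SLC7A11 at 125 ± 10.0. The order was the same in ACh, and no pair of neighbours overlapped in either group. It rests on the deposited gene lengths, which may differ from the expressed transcripts. The spread between libraries does not measure such an error, so the order of neighbours is not settled. The least precise of the 7 genes was SLC7A11 in Control, with a coefficient of variation of 8.04%, and the most precise was TXNRD1 in ACh, at 0.274%.

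**Figure D3:**
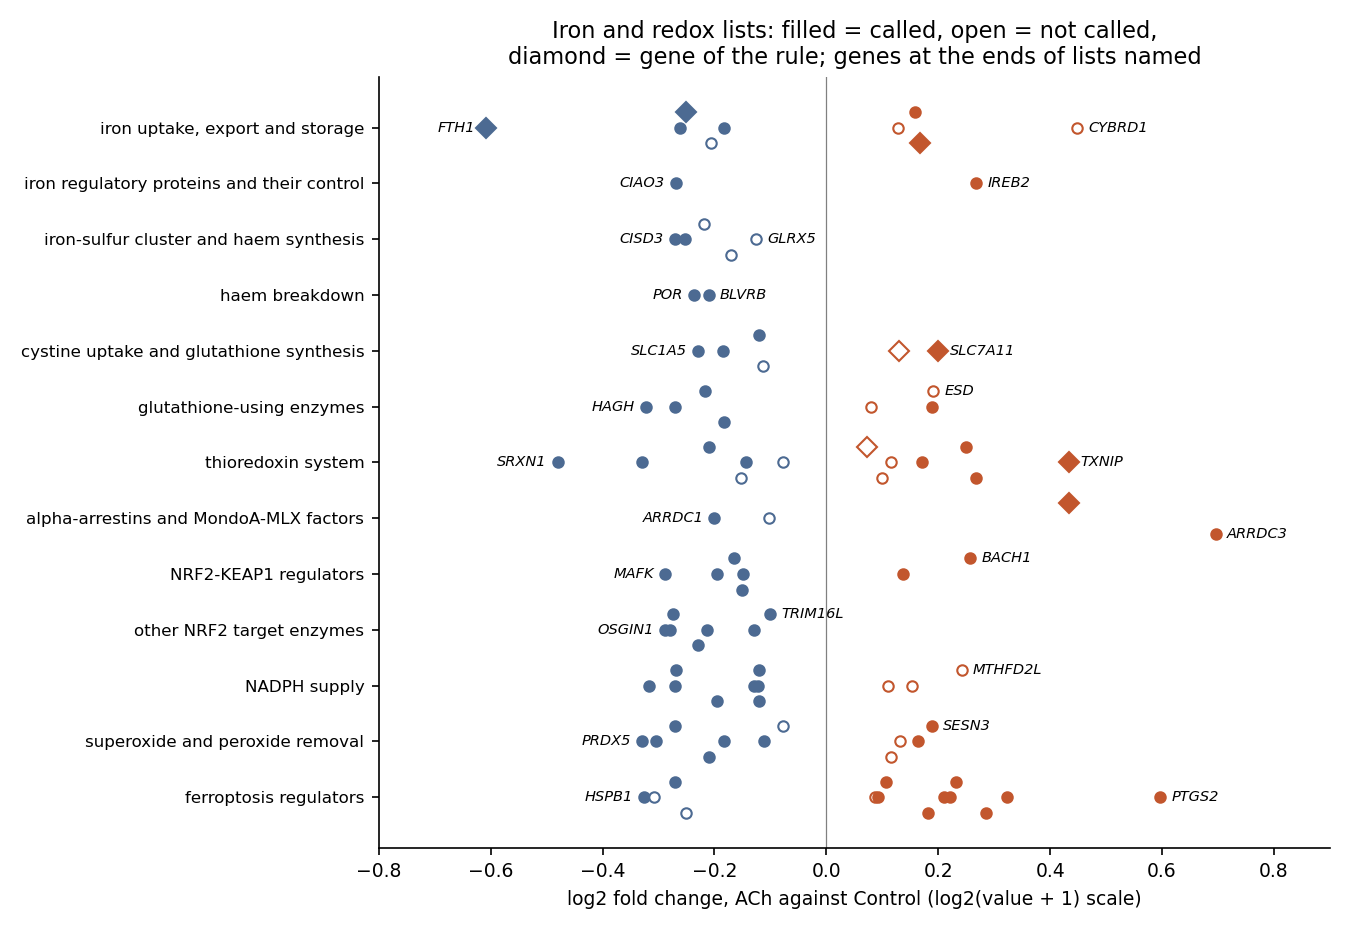
Log2 fold change of ACh against Control (horizontal axis, log2(value + 1) scale) for each gene with a row in the 13 lists; a gene in several lists is drawn in each. Filled points are called, open points are not, and diamonds are the genes of the rule; FTH1 is lowest at -0.61 and ARRDC3 highest at 0.70.

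Regulators of NRF2 were called in both directions. NFE2L2, which encodes NRF2, went from 1885 ± 65.4 to 2072 ± 40.1, and BACH1, a repressor of many of the same genes, from 810 ± 33.9 to 968 ± 27.5 (SD, n = 3). KEAP1, the adaptor that marks NRF2 for degradation, went from 2611 ± 21.7 to 2279 ± 67.4 (SD, n = 3). The small MAF partners MAFK and MAFG were called lower at -0.29 and -0.16. Of 15 regulators 7 had a row and all 7 were called, against 63.8% of all rows, 2 higher (against 28.8%) and 5 lower (against 35.0%). With equal totals over the listed genes 2 were called lower, and after the GC step 0 of the 7 calls were kept. KEAP1 then stood at 0.03, NFE2L2 at -0.02 and BACH1 at 0.10.

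Of 27 further NRF2 target enzymes 7 had a row, and all 7 were called lower, against 35.0% of all rows. Genes of the rule that are not in this list went both ways. FTH1 (-0.61) and FTL (-0.25) were called lower and SLC7A11 (0.20) higher, while GCLM (0.13) and TXNRD1 (0.07) were not called. The rows of this list thus do not stand for NRF2 targets as a whole. OSGIN1, ALDH3A1, an aldehyde dehydrogenase, and SLC48A1, a haem transporter, had the largest differences at -0.29, -0.28 and -0.27, with overlapping groups for ALDH3A1. TRIM16 was the gene whose call was kept with the GC trend removed, at -0.27 against -0.21 before, 1 of 6 called genes with a GC value.

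The pentose phosphate pathway and the other suppliers of NADPH, which both thiol systems consume, were called lower in 8 of 11 rows, against 35.0% of all rows, and not called in 3. TKT, transketolase, went from 23802 ± 151 to 19755 ± 616 (SD, n = 3), and PGLS was called lower at -0.27. With equal totals over the listed genes 3 of the 8 calls were made. After the GC step 3 of 8 were kept, TKT (-0.12) and SHMT1 (-0.18) among them, and PGLS turned to 0.07.

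Of 18 genes that remove superoxide and peroxide 11 had a row, of which 2 were called higher (against 28.8% of all rows) and 6 lower (against 35.0%). CCS, the copper chaperone of superoxide dismutase, was called lower at -0.30, and SESN3 and OXR1 were called higher at 0.19 and 0.16. In this list PRDX5 and PRDX2 kept their calls with the GC trend removed.

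The list of ferroptosis regulators, genes of an iron-dependent death by lipid peroxidation, holds genes that promote this death and genes that hold it back. It had 14 of 38 genes with a row, of which 9 were called higher (against 28.8% of all rows), 2 lower (against 35.0%) and 3 not. FAR1, an enzyme of ether lipid synthesis, went from 1239 ± 58.0 to 1552 ± 117, and SAT1, a polyamine acetyltransferase, from 1122 ± 35.1 to 1369 ± 65.0 (SD, n = 3). PTGS2, the inducible cyclooxygenase, was higher by 0.60 on the log2 scale. HSPB1, a small heat shock protein, and GPX4 were the genes called lower, HSPB1 at -0.33. The 14 mouse transcripts had a median of 45.03% G and C, against 50.9% for all rows, and with the GC trend removed PTGS2 alone kept its call and sign, 1 of 11.

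Over the 13 lists, 89 of 273 genes had a row, and 23 were called higher (25.8%, against 28.8% of all rows), 43 lower (48.3%, against 35.0%) and 23 not. Their median log2 fold change was -0.12, against -0.10 over all rows. Without the 7 genes, 20 of 82 were called higher (24.4%) and 41 lower (50%). With the GC trend removed 13 of the 65 called genes with a GC value kept call and sign (20%), against 330 of 2464 over all rows (13.4%). The listed mouse transcripts had a median of 52.7% G and C.

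**Figure D4:**
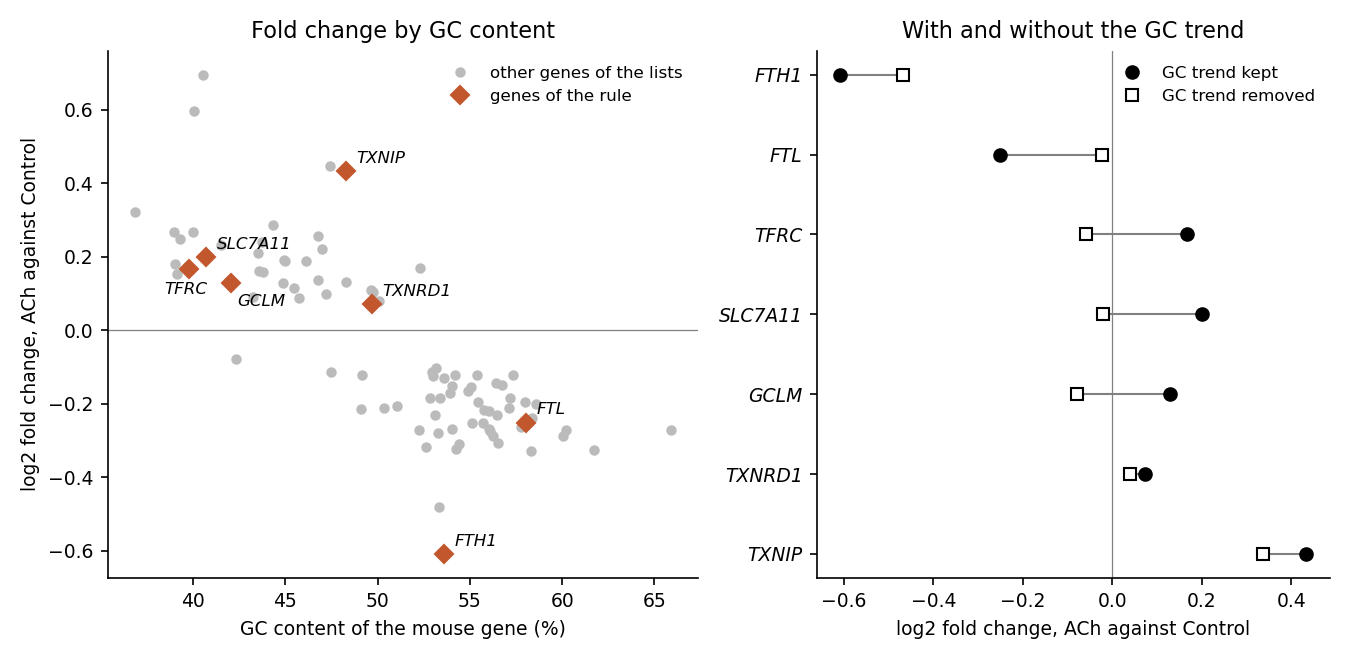
Left, log2 fold change of ACh against Control (vertical axis) against the GC content of the mouse gene in percent (horizontal axis) for genes of the 13 lists. Right, log2 fold change (horizontal axis) of the 7 genes with the GC trend kept and removed; FTH1 (-0.61 and -0.47) and TXNIP (0.43 and 0.34) stay well away from 0, while FTL, TFRC, SLC7A11 and GCLM move to within 0.08 of 0.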

How the data were processed

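RNA of 3 Control and 3 ACh libraries of KYSE30 was sequenced, per the labels. The deposited table holds, per gene, a signal for each library, read counts that the authors divided by 1 factor per library, since every value above 0 was a whole multiple (within 0.1) of 1 step per library. Those steps lay between 0.7678 and 1.1314. By the check used here the Control libraries, though not the ACh libraries, had too few low values to recover reads. For that reason no count test was run, and the depth is unknown. The log2 fold changes and p-values in the deposited table come from the authors' test, as the file headers name them. The submitters' processing notes name Bowtie 0.12.2, mm8 and mm10 and the organism label is mouse, whereas 4183 of 4195 gene IDs are human. Build, counting and use of strand are not stated for the human genes, and reads where genes overlap cannot be assigned to either gene; coordinates and gene lengths are printed as deposited, and no sequence is shown.

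Values were fitted as log2(value + 1) with limma 3.58.1 (limma-trend, R 4.3.3) over all rows, with a term for group alone, and adjusted by Benjamini-Hochberg at 0.05. A gene was called where limma's and the authors' adjusted p both passed. The fit was tested on simulated data in which most genes were unchanged and none were selected, so that test says nothing of its error rate on these selected rows. The authors' adjusted p was exactly 1 for 234 rows, which could not be called. Alternatives recompute limma's part of a call, and the authors' part stays as deposited. GC content was taken from mouse genes with matching symbols (GENCODE M21, longest coding transcript), with 5 symbols paired by hand, and its trend was removed per library by local regression (span 0.3). The members and lists were chosen with earlier results of these data known. Named genes are those of the rule, the ferritin pseudogenes, up to 3 called genes per direction and list with a mean of at least 100, the 3 nearest profiles per member, and some genes chosen after their values were seen for their role in a pathway. Of the pathway genes so named 1 is not reported here. Alternatives were a pseudocount of 0.1, a filter at the lower quartile of means, a replicate block, leaving out each library, equal totals and the GC step. Tables and plots were made with Matplotlib 3.10.9, SciPy 1.17.1, NumPy 2.4.6 and pandas 2.3.3 under Python 3.11.15.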

Additional observations from a re-analysis of the deposited data

How the results depend on the processing

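All 71 named genes kept their direction and their side of the threshold with a pseudocount of 0.1 and with a replicate block. The same held without any 1 library, and for the 59 that remained with the lower quartile of means left out. The side of the threshold was close to fixed in advance, so nothing is read from its being kept. The authors' adjusted p was held as deposited, and limma alone called 4178 of the 4195 rows selected on this contrast. TXNRD1 counted as kept without Control replicate 2, though limma's adjusted p went from 0.0394 to 0.165, because the authors' adjusted p already barred a call. With equal totals over the listed genes, which moved the median of all rows by 0.08, GSS and MAFG lost their calls and the other 69 held. The share of limma's calls that were higher then went from 48.2% to 63.7%.

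With the replicate block 2677 genes were called, as without it, with the authors' adjusted p held, while limma alone called 4187, against 4178 without the block. Same-numbered libraries deviated together only weakly (r = 0.088, 0.104 and 0.193), though each library correlated best with its own number. The numbers were not taken as a pairing.

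With the GC trend removed 397 genes were called (182 higher, 215 lower), against 2677 (1207 higher, 1470 lower) with the trend kept over all rows, where limma alone, without the adjusted p of the authors, called 4178. Of the rows kept for that step 2464 were called with the trend kept. The 7 genes then had 1 called higher and 1 called lower, and the lists 4 and 10, ACSL3 among the 10 with its sign turned. FTL was at -0.023 (adjusted p of limma 0.734), and GCLM, TFRC and SLC7A11 turned to -0.080, -0.059 and -0.020. The log2 ratio of FTH1 to FTL went from -0.357 to -0.445, of FTH1 to TFRC from -0.776 to -0.409, of FTL to TFRC to 0.035, of FTH1 to NCOA4 from -0.768 to -0.433, of SLC7A11 to SLC3A2 from 0.385 to 0.032 and of GCLM to GSS from 0.249 to -0.138. Of the 68 named genes with a GC value 17 kept direction and side of the threshold, called or not. A further 28 kept direction but lost the call. The other 23 turned sign and were counted apart, whether or not a call was lost as well. Beside GCLM, TFRC and SLC7A11 they were, in pathway lists, NCOA4 (-0.035), BLVRB (0.001), GSS (0.058), ARRDC1 (0.033), NFE2L2 (-0.018), KEAP1 (0.031), MAFG (0.006), PGLS (0.071) and OXR1 (-0.033). Among nearest profiles they were CCDC85C (0.040), KPNB1 (-0.042), SPIN1 (-0.084), USP8 (-0.056), ADSS (-0.073), USP14 (-0.094), PRPF4B (-0.040), PARG (-0.015), CAB39 (-0.008), ABCA12 (-0.007) and GPBP1 (-0.008). Why these values moved was not tested, and GC content is that of mouse genes.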

Other observations

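For each of the 7 genes the 3 protein-coding rows with the nearest profile over the 6 libraries were found among 3837 rows with a mean of at least 100, by the root mean square difference of centred log2 values. The neighbours of FTH1 were the farthest of the 7 genes, MRPL12 (0.06), the ribosomal protein gene RPL35 (0.07) and CLDN23 (0.09). Those of TXNIP were ARNTL2 (0.03), IKZF2 (0.04) and NT5E (0.05), which stood at log2 fold changes of 0.40, 0.41 and 0.35. FTL lay within 0.02 of CCDC85C, NR2F2 and HNRNPA0, as did TFRC of PRPF4B, PARG and CAB39. SLC7A11 was nearest to NAA25, ABCA12 and GPBP1, GCLM to USP8, ADSS and USP14, and TXNRD1 to KPNB1, SPIN1 and GPR107. The profiles share libraries and a selection on the same contrast, so nearness says little beyond a like difference between the groups.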
